A study of Arabidopsis thaliana with 20 samples.

Results

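The root-only rise is a set of Arabidopsis thaliana transcripts whose levels were higher in roots under water than in roots kept in air and darkness, with no such difference in the shoots. A member is a probe set, the group of short probes that reads a transcript on an Affymetrix ATH1 array. The mean log2 value of submerged roots had to exceed that of dark roots by at least 0.7 at both 7 h and 24 h. In shoots the same difference had to lie below 0.3 at both times. Of 22746 probe sets, 60 met this rule, which is 0.264% of all. The probe table gives 1 gene for 34 of them, several genes for 5 and no gene for 21. Only the 34 with 1 gene are described by name.

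Plants of accession Col-0, grown singly in soil to a rosette of 9 to 10 leaves, gave whole roots and rosettes, called shoots here. Both organs were taken after 7 h and 24 h completely under water in darkness, after 7 h and 24 h in air in the same darkness, and at 0 h from plants in air in the light. Each of these 10 groups held 2 arrays, from independent replicate experiments, and no group carried a mutation or a transgene. The treatments began 2 h into the light period, so the 7 h samples differ from the light samples in time of day as well as in darkness, and these cannot be told apart. In whole organs, fewer cells of a type and less RNA per cell cannot be told apart either.

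Water slows the movement of gases, and flooded roots in soil are usually the first organ to run short of oxygen. The well known low-oxygen genes, which serve fermentation and the saving of energy, are switched on in roots and shoots alike. A root also makes proteins that a leaf hardly makes. Among them are enzymes secreted into the wall of root hairs, the tubular outgrowths of the root surface. Class III peroxidases stiffen or loosen walls with peroxide, and XTH enzymes cut and rejoin the xyloglucan that ties cellulose together. In darkness a root loses the sugar that leaves send down in the light, and growth slows.

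The deposited values were log2 expression values after RMA, so a difference of 1 is a doubling. They ran between 2.83 and 15.02, array medians lay between 6.13 and 6.41, and the correlation between the arrays of a group ran from 0.992 to 0.996. The organ labels were checked with markers. The summed linear level of 4 measured leaf markers was 198 to 1666 in roots and 30671 to 58823 in shoots, and all 4 were called lower in roots than in shoots in the light. The sum of 3 measured root markers was 1160.1 to 11729 in roots and 307 to 763 in shoots, and all 3 were called higher in roots. The root marker sum also differed between the treatments. It was 4128 to 4444 in submerged roots and 3604 to 3767 in dark roots at 7 h, and 1160.1 to 1501 in submerged roots and 1978 to 2139 in dark roots at 24 h. The markers did not shift alike: PYK10, a beta-glucosidase, differed between submerged and dark roots by 0.16 at 7 h and -0.89 at 24 h, while EXPA7 differed by 1.14 and 0.69 and EXPA18 by 0.78 and 0.44. The leaf marker sum was 910.2 to 1027 in submerged roots and 1184 to 1198 in dark roots at 7 h, and 1008 to 1240.1 in submerged roots and 1378 to 1666 in dark roots at 24 h. The part of these shifts in the values below was not tested.

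The values that chose the members are given as a description, without a test. The difference between submerged and dark roots had a median of 1.13 over the 60 members at 7 h and of 0.95 at 24 h, against medians of -0.04 and -0.02 over all probe sets. It ran from 0.72 to 2.57 at 7 h and from 0.72 to 2.20 at 24 h. In shoots the medians were -0.01 and 0.01, and single differences ran from -0.85 to 0.30. Both submerged root arrays read above both dark root arrays for 59 members at 7 h, against 19.9% of all probe sets, and for 60 at 24 h, against 21.5%. The rule used these arrays, so nothing is read from the counts. At both times the root difference was 1 or more for 17 members. In 12 members the shoot difference was below -0.3 at 7 h or 24 h, so in these the shoots of submerged plants read lower than those of dark plants.

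**Figure D1:**
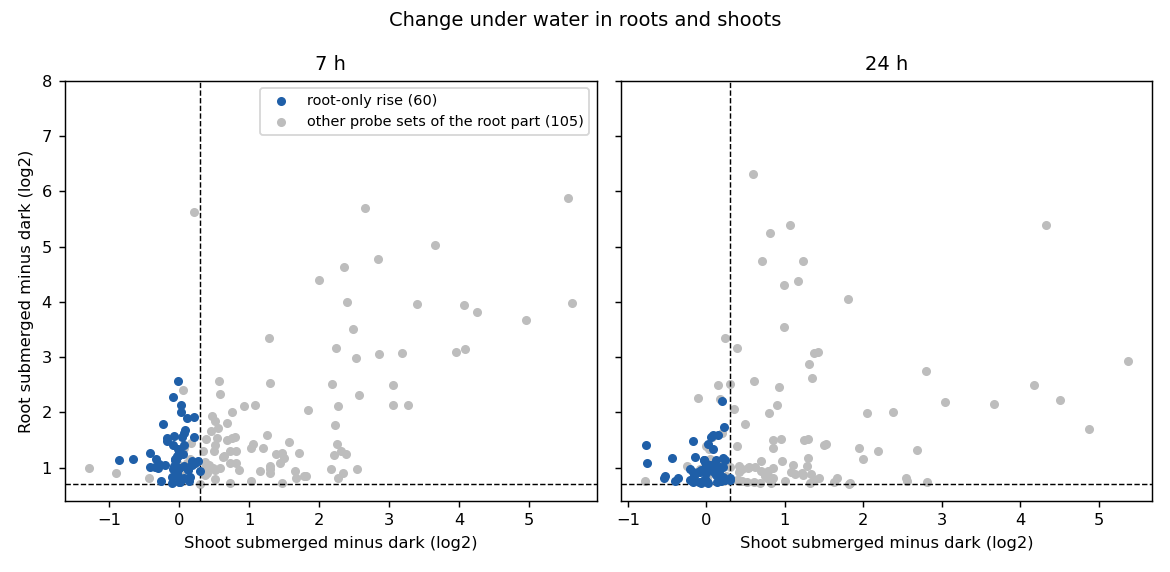
Difference between submerged and dark tissue (log2) in roots, on the vertical axis, against that in shoots, on the horizontal axis, at 7 h and 24 h. Blue points are the 60 members, grey points the other 105 probe sets whose root difference was at least 0.7 at both times, and dashed lines mark 0.7 and 0.3. The members reach 2.57 in roots and run from -0.85 to 0.30 in shoots, while many grey points lie higher in both organs.

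A threshold separates neighbours that hardly differ. Just inside 0.7 were AT1G02810 with a smaller root difference of 0.72, AT4G35200 with 0.72 and AT2G02680 with 0.74. Just outside lay EXPA7, an expansin of root hairs, with root differences of 1.14 at 7 h and 0.69 at 24 h. AT4G08410 and AT4G10550 followed with smaller differences of 0.69 and 0.68. On the shoot side, AT1G11330 was just inside with a larger shoot difference of 0.30, then AT2G45180 with 0.28 and AT3G49960 with 0.24. AT4G14980 missed the bound by little, with a shoot difference of 0.301 at 24 h beside root differences of 2.41 and 2.51. The next outside were AT2G47560 with 0.34 and GH9C1, a glycosyl hydrolase of the cellulase family, with 0.39.

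The replicate experiments allowed a look at arrays that had not chosen a probe set. With the rule applied to replicate 1 alone, 70 probe sets were chosen, and in replicate 2 the root value was higher under water at both times for 58 of them (82.9%), against 21.2% of all probe sets. Their median root differences were 0.97 and 0.89 at 7 h and 24 h in replicate 2, against 1.16 and 0.95 in the replicate that chose them. Chosen on replicate 2, 51 probe sets gave 46 (90.2%) with higher root values at both times in replicate 1, against 24.6% of all. The full rule was met again by 18 of the 70 (25.7%, against 0.224% of all) and by 18 of the 51 (35.3%, against 0.308%). The root side was met again by 31 of the 70 (44.3%) and 23 of the 51 (45.1%), beside 0.743% and 0.831% of all probe sets. The shoot side was met again by 48 of the 70 (68.6%) and 39 of the 51 (76.5%), beside 74.6% and 77.6% of all probe sets. It was thus met no more often than over all probe sets. Of the 60 members, 33 had root differences of at least 0.7 in both replicate numbers at both times. The rule used both replicates, so that count is a description.

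XTH26, a xyloglucan endotransglucosylase/hydrolase with a known part in root hairs, shows the commonest pattern of the set. It read 5.64 and 6.32 in roots submerged for 7 h, against 4.34 and 4.81 in dark roots, and 5.67 and 5.33 after 24 h, against 4.72 and 4.36. Roots in the light read 7.81 and 7.90. Submerged roots thus read between the dark and the light level of XTH26 at both times. The rule used the submerged and dark arrays, so nothing is read from the gap between those. All 10 shoot arrays lay at the bottom of the scale, from 3.73 to 4.06.

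Of the 4 class III peroxidases in the set, 3 shared this order. AT3G49960 read 6.80 and 7.88 in roots submerged for 7 h and 5.17 and 6.38 in dark roots, where the replicate 2 array was the higher in each group. After 24 h it read 7.27 and 7.25 under water and 6.06 and 6.17 in the dark, against 10.07 and 9.83 in the light. The difference at 7 h was 1.56 over all arrays. Leaving out dark replicate 1 gave 0.95, and leaving out submerged replicate 2 gave 1.02. AT1G30870 read 9.22 and 9.72 in submerged roots and 7.68 and 8.28 in dark roots at 7 h, 8.99 and 9.11 against 8.26 and 7.83 at 24 h, and 11.09 and 11.15 in light roots. AT4G26010, known as PRX44 and tied to root hair growth, read 10.71 and 11.22 under water and 9.92 and 10.37 in the dark at 7 h. At 24 h AT4G26010 read 10.49 and 10.30 under water and 9.38 and 9.04 in the dark, with 12.46 and 12.31 in light roots. In all 3, light roots always read highest. The rule chose these genes on the submerged and dark root arrays, so nothing is read from the gap between those.

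The other peroxidase, AT1G71695, ran the opposite way between light and dark. It read 11.08 and 11.22 in roots submerged for 7 h and 10.02 and 10.29 in dark roots, then 11.16 and 11.19 under water and 10.45 and 10.28 in the dark at 24 h. Light roots read only 7.92 and 8.24, the lowest of the root groups. It was bright in shoots as well, at 9.51 to 10.16 over all 10 shoot arrays, and there submerged tissue read lower than dark tissue by 0.31 at 7 h and 0.36 at 24 h.

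**Figure D2:**
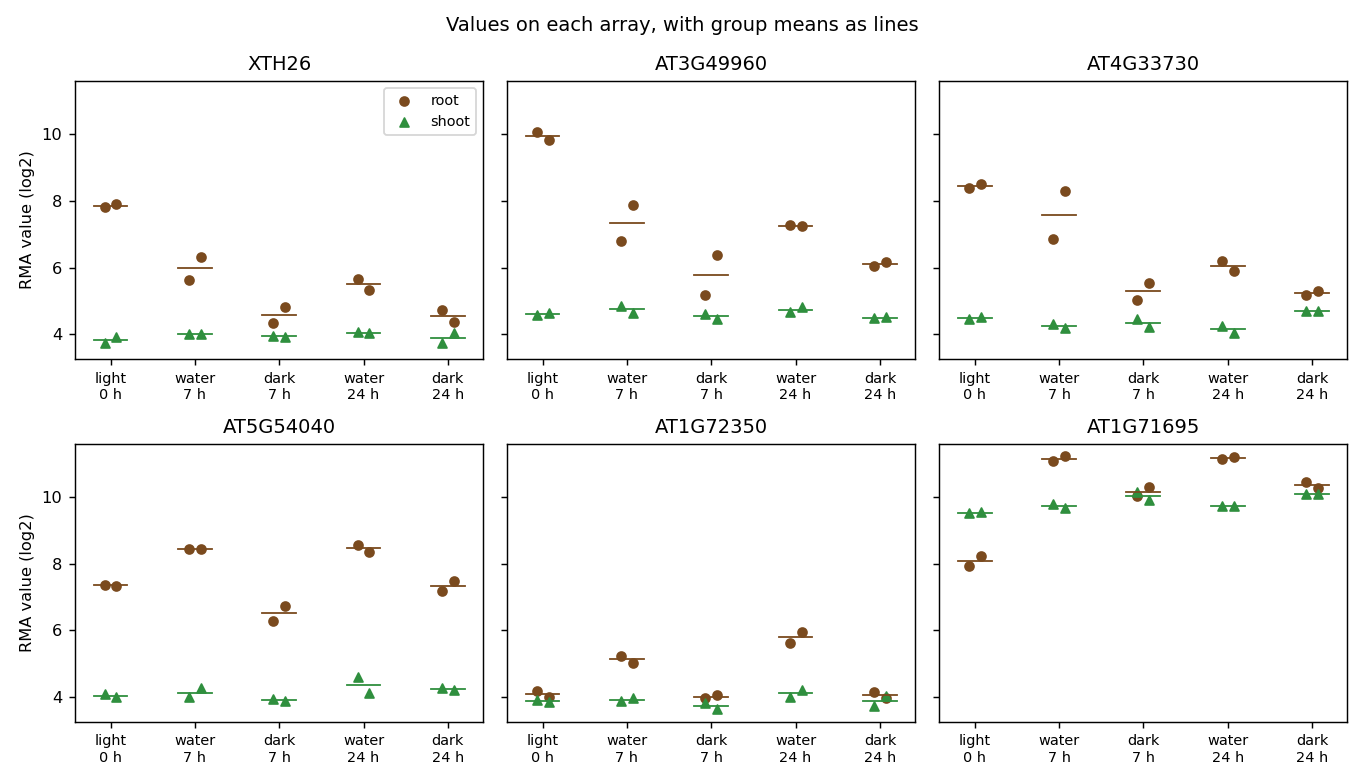
Log2 value on each array for 6 members, with a panel per gene; the horizontal axis gives light, water 7 h, dark 7 h, water 24 h and dark 24 h, points are single arrays, roots and shoots are told apart by colour and shape, and lines mark group means. XTH26, AT3G49960 and AT4G33730 read highest in light roots, AT1G71695 lowest there, and AT1G72350 above its other root groups only under water.

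CAP proteins are small secreted proteins related to the pathogenesis protein PR-1, and 3 of the members belong to them. AT4G33730 had the largest mean root difference of all named members. It read 6.87 and 8.30 in roots submerged for 7 h and 5.04 and 5.55 in dark roots, a difference of 2.29, while at 24 h it read 6.21 and 5.91 against 5.19 and 5.29, a difference of 0.82. Light roots read 8.39 and 8.52, so a 7 h submerged array came close to the light level and the other did not. AT4G25790 read 7.04 and 8.01 under water and 6.10 and 6.53 in the dark at 7 h, 7.43 and 7.88 against 6.64 and 6.59 at 24 h, and 10.83 and 11.13 in the light. Without submerged replicate 2 its 7 h difference was 0.73 in place of 1.21. AT4G30320 read 7.24 and 7.80 against 6.62 and 6.47 at 7 h, 7.09 and 7.07 against 6.62 and 6.05 at 24 h, and 10.03 and 10.23 in light roots. In all 3 the submerged root arrays lay far below the light ones at 24 h.

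Other members carry out wall or membrane tasks. AT1G02810, a pectin methylesterase, read 8.17 and 8.64 under water and 6.98 and 7.76 in the dark at 7 h, and 8.07 and 8.08 against 7.24 and 7.48 at 24 h, with 9.52 and 9.51 in light roots. AT3G60270, a cupredoxin (a small copper protein), read 8.63 and 8.45 against 7.37 and 7.78, then 9.00 and 8.79 against 7.93 and 7.87, with 9.08 and 9.21 in the light. AT4G11230 encodes RBOHI, an NADPH oxidase, the class of enzyme that makes superoxide at the plasma membrane. It read 6.60 and 6.31 in submerged roots and 5.05 and 5.57 in dark roots at 7 h, and 7.44 and 7.27 against 6.53 and 6.47 at 24 h, beside 5.99 and 5.79 in light roots. The pectin methylesterase stayed below its light level under water, and RBOHI lay above it.

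A group of 5 members encodes proteins with cysteine- and histidine-rich C1 domains, a zinc-binding fold first known from animal protein kinase C. The group was formed after the values were seen. C1-domain genes outside the set were not counted, so it is not known whether 5 is many. AT5G54040 had the second largest mean root difference of the named members. It read 8.43 and 8.43 in roots submerged for 7 h and 6.28 and 6.74 in dark roots, and 8.56 and 8.36 against 7.18 and 7.48 at 24 h, with 7.37 and 7.33 in light roots. Its submerged values lay above both the dark and the light values at each time, unlike those of XTH26 and of the 3 peroxidases that read highest in light roots. Over AT5G54040, AT1G66440, AT2G37780, AT2G37820 and AT2G02680 the root difference ran from 0.83 to 1.92 at 7 h and from 0.74 to 1.34 at 24 h. AT2G37780 was the least even, since its 7 h arrays read 6.76 and 6.53 under water and 5.25 and 6.38 in the dark, so that the difference between same-numbered arrays was 1.51 in replicate 1 and 0.15 in replicate 2.

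Receptor-like and other kinases added 3 genes. AT5G07150, a leucine-rich repeat kinase, read 7.55 and 7.50 in submerged roots and 5.77 and 6.13 in dark roots at 7 h, then 7.77 and 7.68 against 6.43 and 6.74. In shoots it lay between 3.59 and 3.89 throughout. AT1G72540, a protein kinase, read 5.93 and 5.75 against 4.75 and 4.43, then 5.90 and 6.04 against 4.89 and 5.12. AT1G11330, a lectin receptor kinase, read 7.77 and 7.70 against 6.86 and 6.74, then 7.77 and 7.78 against 6.92 and 6.99. The rule chose these 3 genes on the gap between submerged and dark roots, so nothing is read from it. AT1G11330 is the member closest to the shoot bound, with shoot differences of 0.30 at both times.

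Among regulators, AT1G72350, a MADS-box gene, read clearly above its other values only in submerged roots. It read 5.24 and 5.03 in roots submerged for 7 h and 3.96 and 4.06 in dark roots, then 5.64 and 5.96 against 4.15 and 3.98, with 4.17 and 3.99 in light roots and 3.64 to 4.21 in shoots. In the annotation it lies on chromosome 1 next to AT1G72360 (ERF73, also called HRE1), a transcription factor gene of the low-oxygen response, for which no probe set with 1 gene was measured. AGL79, another MADS-box gene and chosen after its values were seen, read 5.99 and 5.28 against 4.82 and 4.95, then 5.89 and 5.68 against 5.08 and 4.67. AT3G58000 and AT2G42140 encode VQ proteins, small partners of WRKY transcription factors. AT3G58000 read 7.00 and 6.99 against 5.16 and 5.70, then 6.63 and 6.63 against 5.19 and 5.24, close to the 6.42 and 6.82 of light roots. AT2G42140 read 6.51 and 6.49 against 4.62 and 5.89, then 6.99 and 6.62 against 5.92 and 5.84.

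A few members have roles in transport or metabolism. AT4G34950, a transporter of the major facilitator family, read 8.85 and 8.88 in submerged roots and 7.75 and 7.68 in dark roots at 7 h, then 8.16 and 8.49 against 6.95 and 6.76. AT4G24350, of the phosphorylase superfamily, read 5.94 and 6.82 against 4.73 and 4.68, then 5.14 and 5.41 against 4.43 and 4.58. In shoots AT4G24350 was well above its other values in the light alone, at 6.55 and 7.99, and lay at 4.34 to 5.05 in the other groups. AT2G45180, a protein of the lipid-transfer type, read 10.11 and 10.45 in submerged roots and 8.79 and 9.53 in dark roots at 7 h, and 9.76 and 9.93 against 8.82 and 9.33 at 24 h. In roots it was far lower than in shoots in every group, where it lay at 12.58 to 13.53.

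AT1G33900, an immune-associated GTP-binding protein, and AT1G33840, a LURP-one-like protein, differed in timing. The difference between submerged and dark roots was 0.85 at 7 h and 1.59 at 24 h for AT1G33900, and 1.54 and 0.86 for AT1G33840. Of the 60 members, 41 had the larger difference at 7 h and 19 at 24 h. The named genes with the largest gain towards 24 h were AT1G33900 (0.74), AT1G72350 (0.61), AT2G37780 (0.51), AT4G26010 (0.36) and AT4G34950 (0.33). The largest losses were -1.47 for AT4G33730, -0.90 for AT4G24350, -0.78 for AT5G54040, -0.68 for AT1G33840 and -0.49 for AT1G30870. Both differences entered the rule, so the change over time was not tested. The unnamed member with the largest root difference differed by 2.57 at 7 h and 2.20 at 24 h and stayed at group means between 3.41 and 3.63 in shoots.

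**Figure D3:**
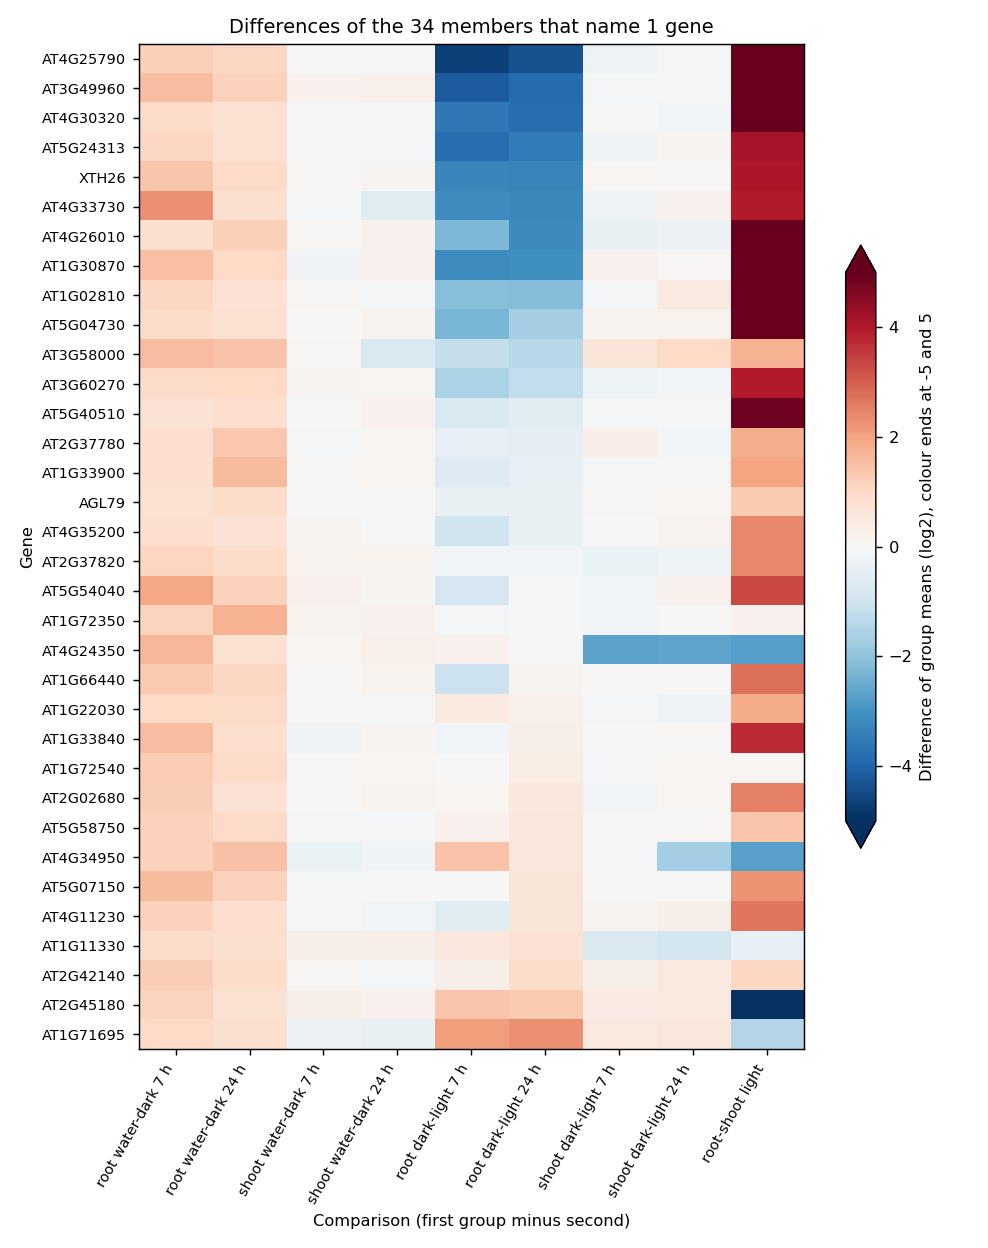
Differences in log2 value for the 34 members that name 1 gene (rows), with a column for each of 9 comparisons; the colour bar gives the scale and its sign. In the columns that set dark roots against light roots, wall enzymes and CAP proteins are negative and AT1G71695 and AT2G45180 positive, while shoot columns are mostly near 0.

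Most members were root transcripts to begin with. The light arrays had no part in the rule, so roots and shoots could be compared there with limma, adjusted by Benjamini and Hochberg over all 22746 probe sets. In the light, 48 of the 60 members (80%) were higher in roots than in shoots, against 34.9% of all probe sets, and 6 (10%) were lower, against 24.3%. The median difference was 2.91, beside 0.02 over all probe sets. The peroxidase AT4G26010 differed most among named genes, by 7.23 (SE 0.24, limma adjusted p = 1.1e-14), then AT1G30870 by 6.39, AT4G25790 by 6.22, the ankyrin-repeat protein AT5G04730 by 5.61 and AT3G49960 by 5.34. For each of these, both root arrays stood above both shoot arrays. The 5 named genes that were lower in roots were AT2G45180 at -4.95 (SE 0.21, limma adjusted p = 3.7e-13), AT4G24350 at -2.77, AT4G34950 at -2.71, AT1G71695 at -1.45 and AT1G11330 at -0.39. Leaving out a light shoot array gave -3.49 or -2.04 for AT4G24350. Leaving out a light root array gave -3.31 or -2.10 for AT4G34950. AT1G72350 and AT1G72540 did not pass, with differences of 0.20 and 0.10.

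The shoot side of the rule is easier to meet for a transcript with a low shoot signal. On all 10 shoot arrays, 46 of the 60 members (76.7%) lay at or below a log2 value of 6, against 39.1% of all probe sets. Only 2 members lay that low on all root arrays, AT1G72350 among them. For these 46 a shoot difference near 0 is a difference between low readings. The shoot bound was met by 90.4% of probe sets that low in shoots and by 76.3% of the others. Among the 165 probe sets that met the root side alone, 46 of the 61 with low shoot signal were members, and 14 of the other 104. Low shoot signal therefore touches the count of root-enriched members above, and its part there was not tested. The 105 that failed the shoot bound were called higher in roots than in shoots in the light in 68.6% of cases and lower in 14.3%, with a median difference of 1.64.

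Darkness in air set the members apart from one another. In dark roots, compared with light roots, 36 members (60%) were lower at 7 h, against 22.1% of all probe sets, and 9 were higher, against 24.8%. At 24 h, 29 (48.3%) were lower, against 25%, and 15 were higher, against 27.8%. The medians were -0.86 and -0.45, beside 0.08 and 0.10 over all probe sets. The dark arrays also chose the members, and a dark array that reads low by chance pushes a probe set both into the set and towards a fall in the dark. Of the 105 other probe sets that met the root side, chosen on the same arrays, 44.8% were lower and 22.9% higher at 7 h, and 37.1% were lower and 36.2% higher at 24 h.

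The largest falls in dark roots at 24 h among named genes were those of AT4G25790 at -4.36 (SE 0.24, limma adjusted p = 9.9e-11), AT3G49960 at -3.83, AT4G30320 at -3.80, AT5G24313 at -3.51 and XTH26 at -3.32. CAP proteins, a peroxidase and a wall enzyme thus led the list, and both dark arrays lay below both light arrays in each of the 5. The largest rises were those of AT1G71695 at 2.28 (SE 0.13, limma adjusted p = 1.6e-10), AT2G45180 at 1.32, AT2G42140 at 0.90, AT1G11330 at 0.73 and AT4G11230 at 0.61. The call for AT2G42140 was lost without light replicate 1 (limma adjusted p = 0.065), and that for AT4G11230 without light replicate 2 (limma adjusted p = 0.061). AT4G11230 was lower in dark than in light roots at 7 h, by -0.58.

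In submerged roots, compared with light roots, the set split. At 7 h 26 members were higher, against 22.8% of all probe sets, and 23 were lower, against 22.8%. At 24 h 29 were higher, against 26.5%, and 22 were lower, against 25.2%. The medians were 0.26 and 0.47. Submerged arrays chose the members too, and a submerged array that reads high by chance pushes a probe set towards a rise here. The 105 other probe sets of the root side were called higher in 73.3% of cases at 7 h and 74.3% at 24 h, and lower in 8.57% at both times, with medians of 1.31 and 1.62. The root differences that chose those 105 reached 5.89 at 7 h and 6.32 at 24 h, and those of the members 2.57 and 2.20. A probe set that stands further above dark roots lies below light roots less easily. Nothing is therefore read from the smaller share called lower among the 105.

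Split by the darkness calls, a division added after the values were seen, 29 members were lower in dark than in light roots at both times, against 18.9% of all probe sets. Their median difference from light was -2.99 at 7 h and -3.18 at 24 h in dark roots, and -1.64 and -2.22 in submerged roots. Of the 29, 22 were also called lower than light under water at both times, and none was called higher at both. The same light arrays chose these 29, so nothing is read from this count beside the 20.4% over all probe sets. The submerged mean lay above the light mean for 3 of the 29 at 7 h and for 5 at 24 h. For the other members of this class the submerged mean lay between the dark and the light mean. The 14 with 1 gene were XTH26, the peroxidases AT3G49960, AT1G30870 and AT4G26010, the CAP proteins AT4G33730, AT4G25790 and AT4G30320, AT1G02810, AT3G60270, AT3G58000, AT1G33900, AT5G04730, AT5G24313 and AT5G40510. In the light, 28 of the 29 were higher in roots than in shoots, against 34.9% of all probe sets, and 1 was lower, against 24.3%, with a median difference of 5.31. High light root values helped to choose these 29, so nothing is read from that count.

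AT1G33900 left its companions at 24 h. It was lower than light in dark roots, by -0.42 (SE 0.16, limma adjusted p = 0.036), and higher than light in submerged roots, by 1.17 (SE 0.16, limma adjusted p = 5.8e-06). AT3G58000 and AT5G40510, a sucrase/ferredoxin-like protein, had differences from light of 0.01 and 0.25 under water at 24 h, and neither passed.

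In 8 members dark roots were higher than light roots at both times, against 19.9% of all probe sets. All 8 were called above light under water at both times, which the rule nearly fixes, since it puts submerged roots above dark roots. Their median difference from light was 1.15 and 1.58 in dark roots and 2.48 and 2.74 in submerged roots. The 3 with 1 gene were AT1G71695, AT2G45180 and AT1G11330, and these were lower in roots than in shoots in the light. Of all 8, 2 were higher in roots there, against 34.9% of all probe sets, and 3 were lower, against 24.3%. The median difference was 0.21, and with 8 members nothing is read from these counts. At 24 h under water AT1G71695 stood 3.09 above light roots (SE 0.13, limma adjusted p = 4.9e-12) and AT2G45180 2.09 above (SE 0.21, limma adjusted p = 1.5e-07).

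The other 23 members changed less in darkness, with medians of -0.13 and 0.14, and stood above light under water, with medians of 1.05 and 1.16. Of these, 15 were called higher than light in submerged roots at both times. The rule puts submerged roots above dark roots, so nothing is read from this count beside the 19.9% over all probe sets. Here belong the C1-domain genes, the kinases AT5G07150 and AT1G72540, RBOHI and the MADS-box genes. At 24 h AT4G34950 stood 2.06 above light roots, AT2G42140 1.82, AT5G07150 1.74 (SE 0.14, limma adjusted p = 1e-08) and AT1G72350 1.71. The light root arrays of AT4G34950 read 6.87 and 5.67, and leaving out 1 of them gave 1.45 or 2.66. All 5 C1-domain genes, chosen after their values were seen and on these submerged arrays, were called higher than light at 24 h, by 0.80 to 1.28, against 26.5% of all probe sets, and nothing is read from that count. At 7 h AT2G02680, AT5G54040 and AT2G37820 passed, with 1.30, 1.08 and 0.93, while AT2G37780 and AT1G66440 had 0.43 and 0.24 and did not. These 5 C1-domain genes were also 1.82 to 3.32 higher in roots than in shoots in the light. All 5 passed there, against 34.9% of all probe sets called higher, and C1-domain genes outside the set were not counted.

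**Figure D4:**
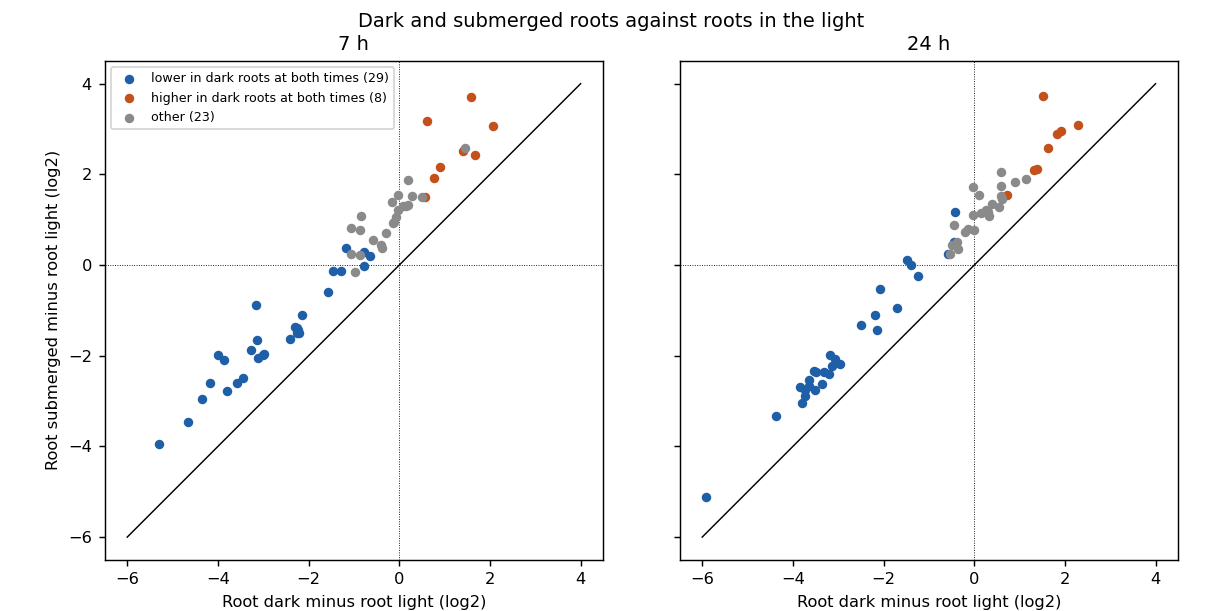
Difference from light roots (log2) of submerged roots against that of dark roots for the 60 members at 7 h and 24 h, coloured by the darkness calls at both times; the diagonal marks equal differences. The members lower in darkness lie to the left, mostly with negative values under water too (medians -1.64 and -2.22), and the 8 that were higher lie at the upper right (medians 2.48 and 2.74).

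In shoots few members were called different between darkness and light. At 7 h 8 were higher in dark than in light shoots, against 24.9% of all probe sets, and 4 were lower, against 24%. At 24 h 6 were higher, against 27%, and 6 were lower, against 25.4%. These are below the shares of all probe sets, in a set where most shoot signals were low. The dark shoot arrays also chose the members, through the shoot bound. Of the 105 other probe sets of the root side, which failed that bound, 27.6% were higher and 19% lower at 7 h. At 24 h, 30.5% of them were higher and 21% lower. Nothing is therefore read from the small counts among the members. AT4G24350 fell by 2.64 in dark shoots at 24 h (SE 0.34, limma adjusted p = 2.3e-06), AT4G34950 fell by 1.71 and AT1G11330 fell by 0.93. AT3G58000 rose by 0.99 and AT1G71695 by 0.55.

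Lists of genes with known functions were set beside the members. Of 43 genes listed for low oxygen, 21 had a probe set with 1 gene. None was a member: 16 met the root side of the rule, beside 165 of all 22746 probe sets. None of these 16 met the shoot bound, which 60 of those 165 and 81.8% of all probe sets met. Over all 21 measured genes the median difference between submerged and dark tissue was 1.66 and 2.14 in roots at 7 h and 24 h, and 2.19 and 0.81 in shoots. With members at 0.264% of all probe sets, a count of 0 among 21 genes is near that share and is no result about the members. That all 16 missed the shoot bound was not tested, and the list was chosen with earlier results of these data known. The root hair list had 2 measured genes of 14, the expansins EXPA7 and EXPA18, and neither was a member. EXPA18 differed by 0.78 and 0.44 between submerged and dark roots. Both were lower in dark than in light roots at both times and higher in roots than in shoots in the light.

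No gene of the other lists was a member. Of those, fermentation and glycolysis had 4 measured genes, ethylene 2, aliphatic glucosinolates 2, indole glucosinolates 1, iron 4, heat shock 3, phenylpropanoids 2, flavonoids 1, auxin 5, leaf markers 4 and root markers 3. The lists for endodermis and suberin, nitrate, phosphate, sulfate, water channels and jasmonate had no measured gene. In this probe table, then, the lists could say little about the named members.

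Whole families were counted after the members were seen, so their counts are no independent support. Of 55 measured class III peroxidases, 4 were members and 7 met the root side, beside 60 and 165 of all 22746 probe sets. Over the family the median difference between submerged and dark roots was 0.23 at 7 h and 0.08 at 24 h, against -0.04 and -0.02 over all probe sets. The root difference was at least 0.7 for 13 of the 55 at 7 h and for 10 at 24 h, members included. The share of all probe sets that reached 0.7 at a single time was not counted, so it is not known whether these are many. Among non-members, AT4G11290, AT5G19890 and AT1G49570, chosen after their values were seen, differed by 2.57, 1.93 and 1.53 at 7 h, and by 0.82, 0.86 and 0.42 at 24 h. Of the 55, 37 were higher in roots than in shoots in the light, against 34.9% of all probe sets. In dark roots at 24 h, 26 were lower than in light roots, against 25%, and 10 were higher, against 27.8%. Of 19 measured CAP proteins, 3 were members, with family medians of 0.11 and 0.24. Of 10 measured VQ proteins, 2 were members, with family medians of -0.09 and 0.24.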

How the data were processed

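The authors deposited log2 expression values made with RMA in the affy package, per the submitters' processing notes; versions and the genome build are not given in the sources used here. Starting from 500 ng of RNA per sample, 20 arrays were hybridised in 10 groups of 2, so the number of arrays limits the precision. From the 22810 probe sets, 64 controls were left out. Without further normalization, limma 3.58.1 (R 4.3.3; lmFit, eBayes, 10 residual and 7.04 prior degrees of freedom) was fitted to all arrays, two-sided, with Benjamini-Hochberg adjustment within a comparison and a threshold of 0.05. The procedure was tested on simulated data.

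Genes were named through a probe table (13513 of the tested probe sets with 1 gene, 503 with several, 8730 with none). The members, the 19 gene lists and the tests were chosen with earlier results of these data known, and 3 families and the split by darkness calls were added after the values were seen. Named genes were the 15 with the largest mean root difference, the 5 and 5 at the ends of each other comparison and of the change over time, and 3 on each side of each threshold. AGL79, AT2G37820, AT3G60270 and AT5G40510 fall outside this rule and were chosen after their values were seen.

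The main model did not pair samples by replicate number: over 45 pairs of groups the correlation of deviations ran from -0.14 to 0.16. These correlations do not exclude a shift that same-numbered arrays share in single genes. Alternatives were repeated quantile normalization, median centring, a filter (above 6 on at least 2 arrays, which 56 members passed), 1-gene probe sets, other thresholds, subsets of arrays, another variance model, a replicate block and leaving out each array.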

Additional observations from a re-analysis of the deposited data

Results flagged for a closer look

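The response to darkness was called different between organs for many members, most of which had low shoot signal. The difference between dark and light tissue was set against itself in roots and shoots with an interaction contrast in limma. It passed for 45 members at 7 h, of which 8 were higher in roots (18.4% of all probe sets) and 37 lower (20.5%). It passed for 38 members at 24 h, of which 10 were higher (17.8%) and 28 lower (21.8%). Of the 105 other probe sets of the root side, 14.3% were higher and 43.8% lower at 7 h, and 21.9% and 29.5% at 24 h. On all shoot arrays 46 of the 60 members lay at or below 6, where a fall in dark shoots can hardly be seen. For these members the contrast can restate the root change alone. The dark root arrays also chose the members. The parts of low shoot signal and of this choice in the counts were not tested.

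Among the genes named for darkness at 24 h, the root response exceeded the shoot response by 1.73 for AT1G71695 (limma adjusted p = 7e-07), by 1.65 for AT1G11330 (limma adjusted p = 3.6e-07) and by 0.85 for AT2G45180 (limma adjusted p = 0.03). AT1G11330 was higher in dark than in light roots and lower in dark than in light shoots. The root response lay below the shoot response for AT4G25790 (-4.32), AT3G49960 (-3.72), AT4G30320 (-3.66), AT5G24313 (-3.64) and XTH26 (-3.39), with limma adjusted p between 1.2e-08 and 1.3e-06. Shoot signals of these 5 genes were low in every group.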

How the results depend on the processing

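The 60 members became 60 after repeated quantile normalization (59 shared), 61 after median centring (57 shared), 56 with the filter, 48 with a shoot bound on both sides, 34 with 1-gene probe sets and 17 with a root threshold of 1; leaving out an array gave 51 to 74. With 1-gene probe sets only, calls numbered 32 between organs in the light, 22 and 22 in dark roots (7 h, 24 h), 4 and 5 in dark shoots, 27 and 29 in submerged against light roots, 14 lower and 3 higher in the dark at both times; fewer members were tested. A 2-fold minimum left 5 and 6 calls in dark shoots and 4 members higher in dark roots at both times. No result reversed. Without a single array, calls ran from 53 to 54 in the light, 43 to 47 and 40 to 43 in dark roots, 9 and 11 to 12 in dark shoots, 46 to 49 and 49 to 52 in submerged roots, 26 to 30 lower and 8 to 9 higher at both times. The lone array left in a group was assumed to vary like the others. With the replicate block the counts were 54, 45, 44, 13, 13, 49 and 52 in the same order, and it moved no count by over 1.5 times. Median centring shifted the median of all probe sets by 0.14 in dark and 0.16 in submerged roots at 24 h, and by -0.17 between organs in the light. Signal near background limits what can be seen in shoots.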
